A study of Mus musculus with 6 samples.

Results

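The acute-phase proteins examined here are the products of 9 genes, Saa1, Saa2, Saa3, Lcn2, Hp, Orm1, Orm2, C3 and Cp. The genes were listed with earlier results of these data known. Their probes were chosen by name: every probe whose gene name in the scanner files is that of a listed gene was taken. This gave 12 of the 41115 probes kept. Each of the 9 genes was represented, and all 12 probes were well above background on all 6 arrays, so no gene was lost to a filter on dim signals. The tissue was whole skin from the back of C57BL/6J mice (an inbred strain), all female and 6 to 8 weeks old. The shaved back had received 62.5 mg of cream a day for 7 days. The cream contained 5% imiquimod, which activates the endosomal receptor Tlr7 and inflames mouse skin in a way that resembles psoriasis, or was vehicle only. Each group had 3 samples, each on 1 single-colour Agilent array, and nothing in the labels says whether samples are different mice. The p-values therefore speak of sample-to-sample spread, part of which may be technical.

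The scanner files were filed under samples of the opposite treatment in 6 of 6 cases. The treatment word in each file's name and the deposited value table, its columns read by sample title, gave the same treatment for all 6 arrays. The rank correlation of an array with the column of the same name and number was 1.000 over 24264 probes, against 0.943 to 0.952 with the column of the sample it was filed under. Arrays are named here by the file-name word. Read as filed, every difference would have the same size and the opposite sign. Slide 1 held imiquimod array 1 and all vehicle arrays, and slide 2 held imiquimod arrays 2 and 3, so slide and treatment overlap in part. With slide as a block, a difference is therefore that of imiquimod array 1 from the mean of the vehicle arrays. Imiquimod arrays 2 and 3 add only to the estimate of spread in such a fit, so it is not a correction of all 6 arrays for slide.

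Acute-phase proteins are secreted proteins whose level in blood changes during inflammation. The liver makes most of them under the control of interleukin-6 and interleukin-1, through the transcription factors Stat3, NF-kappaB and C/EBP. Several are also made outside the liver, by epithelium, fat, macrophages or neutrophils, and in skin they bind iron, haem, lipids or microbes. Values below are scaled log2 signals, that is the log2 processed signal of a probe minus the 75th percentile of its array, and a difference is always the mean of the imiquimod arrays minus that of the vehicle arrays, where 1 unit is a doubling. A gene is said to rise or fall where limma's moderated test, adjusted by Benjamini-Hochberg over the 17778 genes tested, gave a p under 0.05.

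The 9 genes did not move together. Saa1, Saa2, Saa3, Lcn2 and Cp rose in imiquimod-treated skin, Orm1 and Orm2 fell, and C3 and Hp did not pass the test. Of all genes tested 23.6% were called, 13.1% higher and 10.5% lower, against 5 and 2 of these 9. With slide as a block, where imiquimod array 1 alone sets the difference, 3 of the 9 were higher (Saa1, Saa3 and Lcn2) and 0 lower. In that fit 5.96% of all genes were called, 3.04% higher and 2.91% lower. Within slide 1 alone, with 1 imiquimod array, 0 of the 9 passed in limma (5 higher and 2 lower at an unadjusted p under 0.05), and over all genes 7 were higher and 1 lower. The median difference of the 9 genes was 1.79, against 0.02 over all genes tested. As the 9 genes were chosen with earlier results of these data known, such contrasts with all genes are descriptions and not tests. In 6 of the 9 genes every imiquimod array lay above every vehicle array, an arrangement found in 25.9% of all genes, in 2 every vehicle array lay above every imiquimod array, as in 20.7% of all genes, and in Hp the groups overlapped.

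**Figure D1:**
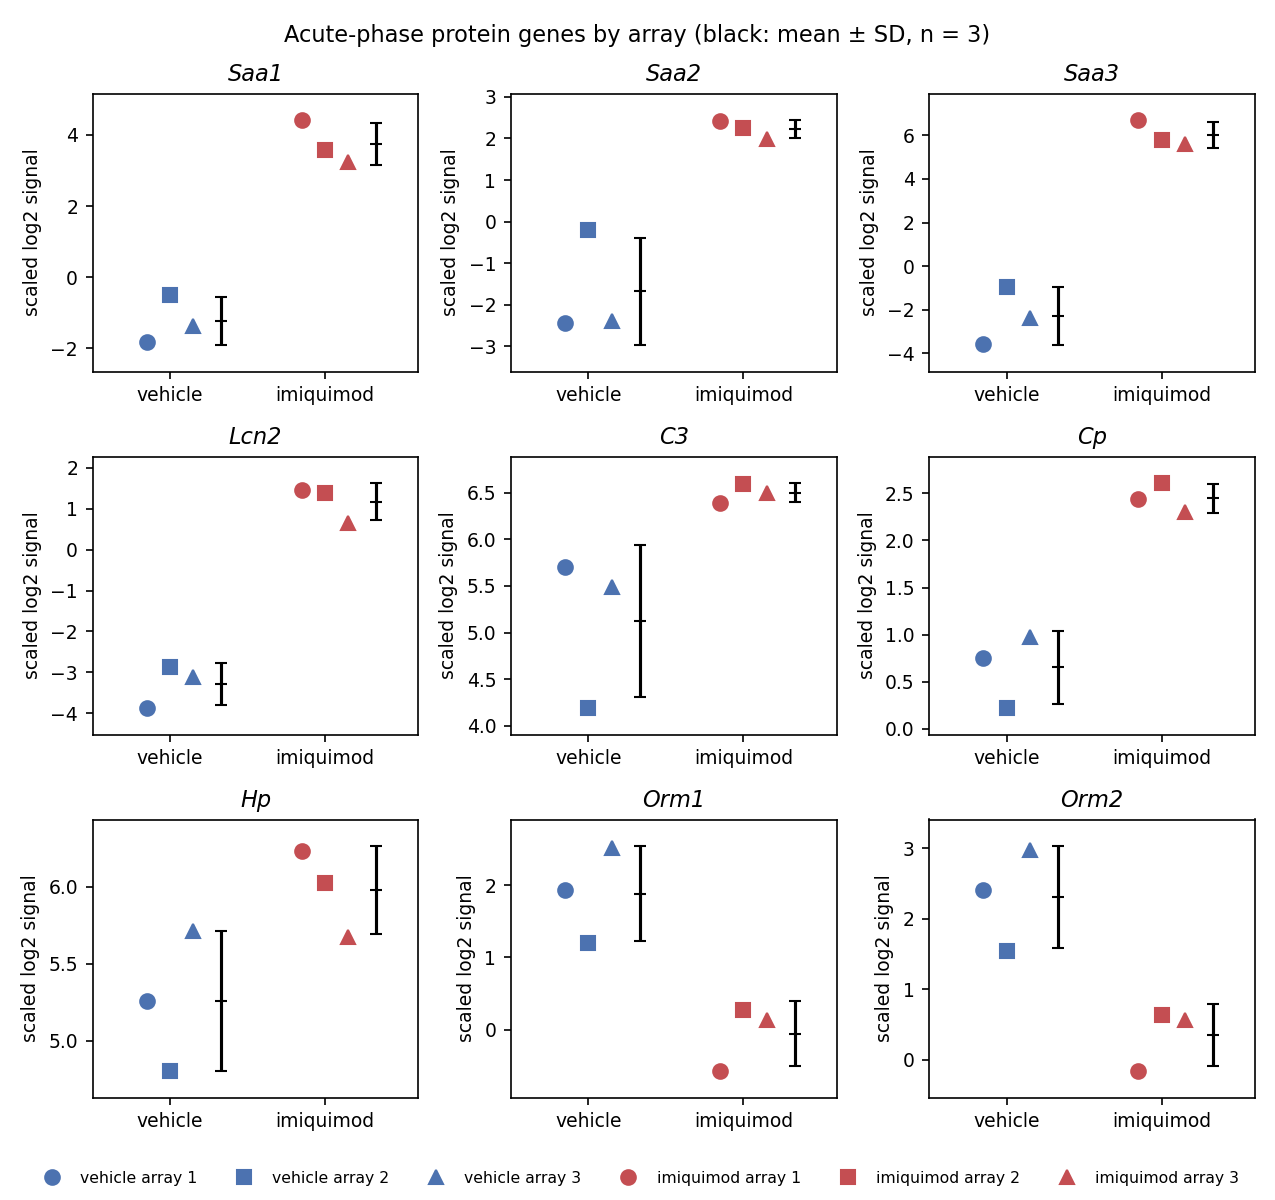
Scaled log2 signal of the probe representing each of the 9 genes (y axis, its own scale in each panel) on the 3 vehicle and 3 imiquimod arrays, with the mean and SD of each group in black (n = 3). The groups are far apart in Saa1, Saa2, Saa3 and Lcn2, closer in C3 and Cp, overlapping in Hp, and in the opposite order in Orm1 and Orm2.

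The serum amyloid A proteins are small apolipoproteins that travel on high-density lipoprotein and attract leukocytes. Saa1 and Saa2 are the main circulating forms in the mouse, and Saa3 is the form made mostly outside the liver. The 60-base probes that measured Saa3 and Saa1 are shown because these genes are close relatives, and the array design itself lists a Saa1 accession beside that of Saa3 for the Saa3 probe. Each is given 5′ to 3′ in lower case.
Saa3: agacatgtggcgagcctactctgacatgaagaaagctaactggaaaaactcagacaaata
Saa1, probe of higher signal: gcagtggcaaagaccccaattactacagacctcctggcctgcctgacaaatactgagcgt
Saa1, other probe: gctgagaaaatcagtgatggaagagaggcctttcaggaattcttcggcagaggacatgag
The Saa3 probe lies in mm9 on the minus strand at chr7:53968031-53968090, and those of Saa1 on the minus strand at chr7:53996070-53996129 and chr7:53996167-53996639. The last covers 473 bases of genome with 60 bases of probe, so it crosses an intron. The Saa2 probe lies on the plus strand at chr7:54009535-54009594. The longest run of bases that the probes of Saa1, Saa2 and Saa3 share with one another is 8. Hybridisation of a probe to the transcript of a relative was not tested, and no exon annotation of mm9 was used here.

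Saa3 was the gene of the largest difference among the 9, and ranked 2 of 17778 in the size of its rise. Its scaled log2 signal was 6.68, 5.78 and 5.60 on imiquimod arrays 1, 2 and 3, and -3.56, -0.94 and -2.36 on vehicle arrays 1, 2 and 3. The lowest imiquimod array lay 6.54 above the highest vehicle array, so the groups were separated by far more than the spread within either. Saa3 rose by 8.31 (SE 0.69, adjusted p = 0.00207 in limma), a 317-fold change, with group means of 6.02 ± 0.58 and -2.29 ± 1.32 (SD, n = 3). With slide as a block the difference was 8.97 (adjusted p = 0.0203), the same estimate as within slide 1.

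Saa1 gave 4.41, 3.58 and 3.25 on the imiquimod arrays and -1.82, -0.50 and -1.37 on the vehicle arrays. The groups were 3.75 apart at their nearest arrays. Saa1 rose by 4.97 (SE 0.43, adjusted p = 0.00230 in limma), a 31.4-fold change, and by 5.64 with slide as a block (adjusted p = 0.0170). Its other probe rose by 3.97 (SE 0.52, adjusted p = 0.00639 in limma over the 27415 probes tested, of which 21.2% were called), so both probes had the same direction with different sizes. Saa2 gave 2.42, 2.25 and 2.00 on the imiquimod arrays and -2.45, -0.19 and -2.40 on the vehicle arrays. Vehicle array 2 stood 2.23 above the mean of the other vehicle arrays, which were within 0.05 of each other. Saa2 rose by 3.90 (SE 0.62, adjusted p = 0.0106 in limma), and with slide as a block the difference of 4.10 did not pass (adjusted p = 0.0805).

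The stretch of 250 bases before the annotated start of the 3 genes is shown because Saa1 and Saa2 rose together and lie next to each other in RefSeq on opposite strands, with Saa3 and Saa4 beyond Saa1. The windows are those of RefSeq on GRCm38.p6, 5′ to 3′ on the strand of the gene. Capitals mark matches to the C/EBP motif TTNNGNAA on either strand.
Saa1 (chr7:46742981-46743230, minus strand): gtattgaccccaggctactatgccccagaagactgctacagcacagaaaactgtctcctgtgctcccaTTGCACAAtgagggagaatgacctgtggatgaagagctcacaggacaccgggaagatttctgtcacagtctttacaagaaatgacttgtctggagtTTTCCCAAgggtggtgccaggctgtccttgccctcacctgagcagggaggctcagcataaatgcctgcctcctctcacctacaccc
Saa2 (chr7:46751583-46751832, plus strand): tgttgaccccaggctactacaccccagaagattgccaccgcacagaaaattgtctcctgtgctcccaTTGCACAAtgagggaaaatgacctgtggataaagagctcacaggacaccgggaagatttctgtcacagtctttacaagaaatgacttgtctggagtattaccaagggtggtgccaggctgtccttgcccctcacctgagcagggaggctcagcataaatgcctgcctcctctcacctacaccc
Saa3 (chr7:46715677-46715926, minus strand): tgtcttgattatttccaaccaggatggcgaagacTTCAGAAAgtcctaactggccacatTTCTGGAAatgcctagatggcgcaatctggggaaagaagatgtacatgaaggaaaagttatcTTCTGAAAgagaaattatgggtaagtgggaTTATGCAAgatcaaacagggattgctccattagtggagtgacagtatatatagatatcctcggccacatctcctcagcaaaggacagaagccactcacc
The Saa1 and Saa2 windows are 94.8% identical over 251 aligned positions, while the windows of 300 bases of Saa1 and Saa3 are 50.1% identical. Pairs without 2 Saa genes ran from 43.9% (Cp and Orm2) to 51.3% (Lcn2 and Saa1). Saa1 and Saa2 share the match that starts 182 and 183 bases before their starts. Saa1 has another match 86 bases before its start, and Saa3 has 4 matches. Of all 32851 windows in the RefSeq table, 36.8% hold this motif in the same 250 bases. A match describes the letters only.

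Lcn2, or neutrophil gelatinase-associated lipocalin, takes iron from bacteria by binding their siderophores, and is made by inflamed epithelium and stored in neutrophil granules. Its probe lies in mm9 on the minus strand between chr2:32241037-32241281 and covers 245 bases of genome, so it crosses an intron. Its sequence is shown with the 250 RefSeq bases before the start of the gene, marked as above, as the companion of the Saa windows among the strongly raised genes.
Lcn2 probe: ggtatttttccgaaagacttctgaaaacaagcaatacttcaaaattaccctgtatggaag
Lcn2 (chr2:32387740-32387989, minus strand): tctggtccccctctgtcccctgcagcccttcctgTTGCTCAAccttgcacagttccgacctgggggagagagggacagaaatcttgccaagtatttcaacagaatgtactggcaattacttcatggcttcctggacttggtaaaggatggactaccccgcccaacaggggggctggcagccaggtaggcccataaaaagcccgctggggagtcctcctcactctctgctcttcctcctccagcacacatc
The Lcn2 window holds 1 match to TTNNGNAA, 216 bases before the start. Lcn2 gave 1.46, 1.40 and 0.65 on the imiquimod arrays and -3.87, -2.87 and -3.13 on the vehicle arrays, with 3.52 between the nearest arrays of the groups. This was the narrowest spread among the 4 genes of the largest rises in the vehicle group, at an SD of 0.52. Lcn2 rose by 4.46 (SE 0.34, adjusted p = 0.00178 in limma), a 22.0-fold change, and by 4.75 with slide as a block (adjusted p = 0.0195).

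The promoter table held 7 of the 9 genes. In the 250 bases before the start, each of these 7 had at least 1 match to TTNNGNAA, with 3 in C3, 2 in Orm2 and 1 in each of the 2 windows of Cp. The STAT motif TTCNNNGAA, present in 7.0% of all windows, and the kappa-B consensus, present in 7.3%, matched in 0 of the 7 genes. The C/EBP matches were thus present in the genes that rose and in Orm2, which fell.

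**Figure D2:**
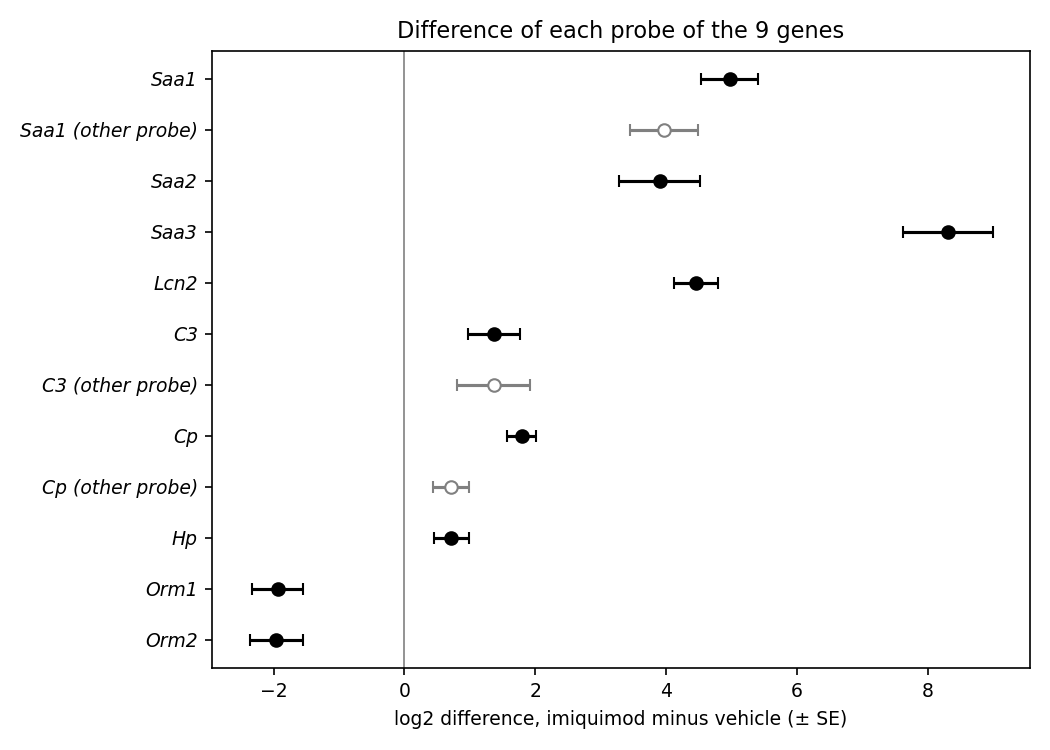
Difference in log2 signal, imiquimod minus vehicle (x axis), with its SE, for each of the 12 probes. Filled points are the probe that represents a gene, open points are the other probes of Saa1, C3 and Cp. The points run from -1.96 for Orm2 to 8.31 for Saa3, and both probes of a gene lie on the same side of 0.

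Cp encodes ceruloplasmin, a copper-carrying ferroxidase that helps iron leave cells and load onto transferrin. It gave 2.44, 2.60 and 2.30 on the imiquimod arrays and 0.76, 0.22 and 0.98 on the vehicle arrays. The imiquimod arrays were all above the vehicle arrays, with 1.32 between the nearest. Cp rose by 1.79 (SE 0.22, adjusted p = 0.00487 in limma), a 3.47-fold change. With slide as a block the difference was also 1.79 and did not pass (adjusted p = 0.0528). A further Cp probe, designed to another RefSeq transcript of the gene and placed on the plus strand at chr3:19909387-19909446 of mm9, differed by 0.71 (SE 0.27, adjusted p = 0.116 in limma over all probes) and did not pass. The representing probe lies at chr3:19889075-19889134.

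C3 is the central component of complement, which is cleaved to label microbes for uptake and to release an attractant of leukocytes. It gave 6.39, 6.60 and 6.50 on the imiquimod arrays and 5.70, 4.19 and 5.49 on the vehicle arrays. Every imiquimod array was above every vehicle array, but the vehicle group was wide because array 2 lay 1.40 below the mean of the others. C3 differed by 1.37 (SE 0.40, adjusted p = 0.0552 in limma) and did not pass. Its probe, at chr17:57343416-57343475 of mm9, was printed in 10 spots on each array, and the SD over these spots was 0.040 to 0.079, against an SD of 0.81 between the vehicle arrays. The other C3 probe gave the same difference, 1.37 (SE 0.56, adjusted p = 0.131 in limma over all probes). Without vehicle array 2 the difference was 0.90 and passed (adjusted p = 0.0113 in limma), and with slide as a block it was 1.27 and did not (adjusted p = 0.271).

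Hp encodes haptoglobin, which binds free haemoglobin for uptake by the macrophage receptor Cd163. It gave 6.24, 6.02 and 5.67 on the imiquimod arrays and 5.26, 4.81 and 5.71 on the vehicle arrays. Vehicle array 3 lay 0.04 above imiquimod array 3, so the groups overlapped. The difference of 0.72 (SE 0.27, adjusted p = 0.104 in limma) did not pass. It passed without vehicle array 3, at 0.95 (adjusted p = 0.0395 in limma), and within slide 1 it was 0.98 (adjusted p = 0.310). The Hp probe lies on the minus strand at chr8:112099172-112099231 of mm9.

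Orm1 and Orm2 encode orosomucoids, also called alpha-1-acid glycoproteins, heavily glycosylated lipocalins that bind drugs and lipids and are classical positive acute-phase proteins of liver. They lie beside each other and Orm3 on chromosome 4. Their probes are shown because these genes moved against the rest.
Orm1: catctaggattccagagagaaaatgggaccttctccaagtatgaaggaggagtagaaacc
Orm2: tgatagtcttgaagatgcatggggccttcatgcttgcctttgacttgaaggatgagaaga
The Orm1 probe covers 608 bases of mm9 on the plus strand, chr4:63006483-63007090, and so crosses an intron, and that of Orm2 lies at chr4:63024979-63025038. The longest run the probes share is 7 bases, and cross-hybridisation between the genes was not tested. The 250 RefSeq bases before the start of Orm2 are given for comparison with the Saa and Lcn2 windows, with matches to TTNNGNAA and to the TATA box TATAAA in capitals.
Orm2 (chr4:63362199-63362448, plus strand): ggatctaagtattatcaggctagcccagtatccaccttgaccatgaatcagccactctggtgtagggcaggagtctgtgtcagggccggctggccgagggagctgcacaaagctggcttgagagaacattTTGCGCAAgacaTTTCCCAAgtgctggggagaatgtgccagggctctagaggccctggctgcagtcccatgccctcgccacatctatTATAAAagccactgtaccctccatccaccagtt
In Orm2 the matches to TTNNGNAA start 120 and 108 bases before the start and the TATA box 33 bases before it. No TATAAA was found in the windows of Saa1, Saa2, Saa3 or Lcn2. A window of Cp, which rose, holds it 25 bases before the start, so it did not separate genes that rose from Orm2. Of all windows, 12.4% hold it in these 250 bases.

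Orm1 gave -0.57, 0.27 and 0.14 on the imiquimod arrays and 1.93, 1.21 and 2.51 on the vehicle arrays. Orm2 gave -0.15, 0.64 and 0.57 against 2.41, 1.55 and 2.97. In both, every vehicle array was above every imiquimod array, by 0.94 and 0.91 at the nearest. Orm1 fell by 1.94 on the log2 scale (SE 0.39, adjusted p = 0.0196 in limma), a 3.83-fold decrease. Orm2 fell by 1.96 on the log2 scale (SE 0.41, adjusted p = 0.0221 in limma), a 3.89-fold decrease. Orm3, counted in a list below, differed by -1.71 (SE 0.55, adjusted p = 0.0713 in limma) and was well above background on 2 imiquimod and 3 vehicle arrays.

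Of 17 alternative settings, Orm1 lost its call in 6 and Orm2 in 7, against 1 or 2 for each of the 5 genes that rose. Both Orm genes were lost with slide as a block, at -2.45 (adjusted p = 0.0619) and -2.46 (adjusted p = 0.0718), and without any of imiquimod arrays 1, 2 and 3 or vehicle array 1, where the adjusted p ranged up to 0.0732 for Orm1 and 0.0811 for Orm2 and the differences from -2.10 to -1.68 for Orm1. The difference of Orm2 in these ranged from -2.10 to -1.71. Blocking on replicate number also ended the call of Orm2 (adjusted p = 0.0518).

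Within the vehicle group, array 2 stood at an end of the range in all 9 genes. It was the highest vehicle array in Saa1, Saa2, Saa3 and Lcn2 and the lowest in C3, Cp, Hp, Orm1 and Orm2. Over all genes tested it was the highest in 37.7% and the lowest in 41.2%. It exceeded the mean of the other vehicle arrays by 2.03 in Saa3 and 2.23 in Saa2, and lay below it by 1.02 in Orm1 and 1.14 in Orm2. Il6, the interleukin-6 gene, was highest on this array as well and was well above background on no other vehicle array. It gave 0.06 there against -6.34 and -5.29 on vehicle arrays 1 and 3, and -0.92, -1.43 and -3.19 on the imiquimod arrays. Socs3, a target and inhibitor of Stat3 signalling, gave 4.44 on vehicle array 2, 2.00 and 2.89 on the others of its group, and 3.76, 3.92 and 3.19 on the imiquimod arrays. Il6 and Socs3 were picked from the lists described below and were not named by a rule. Other genes of the same lists, such as Il6ra, Il6st, Jak1 and Jak2, were lowest on vehicle array 2 within the vehicle group. The cause of the position of this array was not tested. Without vehicle array 2, the differences were 8.98 for Saa3, 4.65 for Saa2 and 0.90 for C3.

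**Figure D3:**
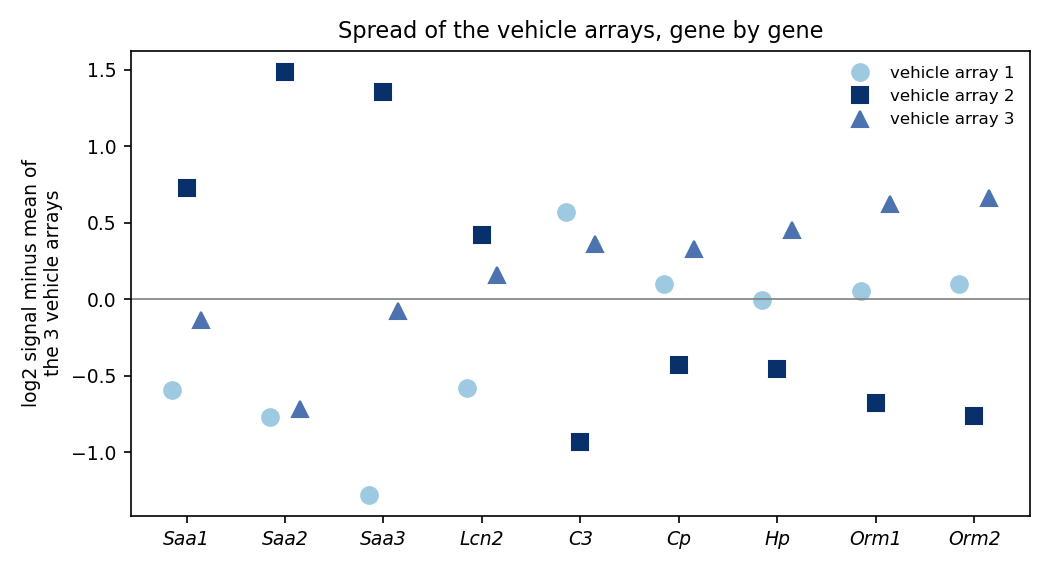
Scaled log2 signal of each vehicle array minus the mean of the 3 vehicle arrays (y axis), for the 9 genes (x axis). Array 2 is the highest point in the Saa genes and Lcn2 and the lowest in C3, Cp, Hp, Orm1 and Orm2.

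Genes that accompany these proteins were described by lists, in the order of inducers, signalling, the proteins themselves and their receptors. Their counts stand against 13.1% of all genes tested called higher and 10.5% lower, or 3.04% and 2.91% with a slide block, and nothing particular to a list is drawn from them. The list of inducing cytokines and their receptors had 23 tested genes, of which 9 rose, 1 fell and 13 did not pass, with a median difference of 0.37. The 3 rises of smallest p were those of the epidermal interleukin-36 cytokines: Il36a rose by 4.03 (SE 0.38, adjusted p = 0.00266), Il36g by 2.16 (SE 0.21, adjusted p = 0.00307) and Il36b by 2.18 (SE 0.26, adjusted p = 0.00475), all in limma. Il17re, a receptor chain for interleukin-17C, fell (difference -0.70, SE 0.12, adjusted p = 0.0120). The liver inducers were looked up after their values were seen. Il1b rose by 3.79 (SE 0.90, adjusted p = 0.0317), Osm, or oncostatin M, was well above background on 0 vehicle arrays and at least 2.66-fold higher in the mean of the imiquimod arrays (adjusted p = 0.0262), and Il6 differed by 2.01 (SE 1.72, adjusted p = 0.429). Il17a was well above background on 2 imiquimod arrays, Il17c, Il17f and Il22 on 1 each, and all 4 on 0 vehicle arrays, so they were not tested. The slide block left 5 genes of the list higher and 0 lower.

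Of 24 tested transcription and signalling genes, 4 rose and 0 fell in limma, against 9 and 1 at an unadjusted p under 0.05, and the median difference was 0.42. Bcl3, an NF-kappaB cofactor, rose by 1.79 (SE 0.33, adjusted p = 0.0155), the subunit Nfkb2 by 0.61 (SE 0.16, adjusted p = 0.0436), and the subunit Rela by 0.43 (SE 0.11, adjusted p = 0.0410). Stat3 differed by 0.58 (SE 0.18, adjusted p = 0.0656), Cebpd by -0.52 (SE 0.21, adjusted p = 0.120) and Cebpb by 0.12 (SE 0.17, adjusted p = 0.638), and none of these passed. The slide block left 2 higher and 0 lower.

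Of 18 tested genes for other acute-phase proteins, 6 rose, 1 fell and 11 did not pass, with a median difference of 0.66. Cd14, a receptor for bacterial lipopolysaccharide, rose by 2.39 (SE 0.24, adjusted p = 0.00324), Pglyrp1, which binds bacterial peptidoglycan, by 2.57 (SE 0.30, adjusted p = 0.00448), and the protease inhibitor Serpina3n by 1.53 (SE 0.25, adjusted p = 0.0108). F3, which encodes tissue factor, fell (difference -0.85, SE 0.22, adjusted p = 0.0414). Hpx, which encodes the haem scavenger hemopexin and was chosen after its values were seen, rose by 2.54 (SE 0.60, adjusted p = 0.0313). Under the slide block 3 were higher and 0 lower. Of the 26 genes of the list on the array, Apcs, Fga, Fgb, Fgg, Hamp, Saa4 and A2m were dark, that is well above background on 0 of 6 arrays, while other genes known from liver, among them Hpx, Vtn and Serpina3m, were well above background on all 6. Of the negative acute-phase genes, whose liver output drops in inflammation, 4 of 9 could be tested. Alb, the albumin gene, rose by 2.12 (SE 0.59, adjusted p = 0.0483), with 2 of 3 vehicle arrays well above background, and did not pass with a slide block (2.62, adjusted p = 0.144). Rbp4, a retinol carrier, differed by -1.12 (SE 0.34, adjusted p = 0.0634 in limma) and passed with slide as a block (-1.87, adjusted p = 0.0285). The block difference is that of imiquimod array 1, where Rbp4 gave 1.16. It gave 2.26 and 2.28 on the other imiquimod arrays, against a vehicle mean of 3.02. In this list 0 genes fell in limma, against 1 at an unadjusted p under 0.05.

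**Figure D4:**
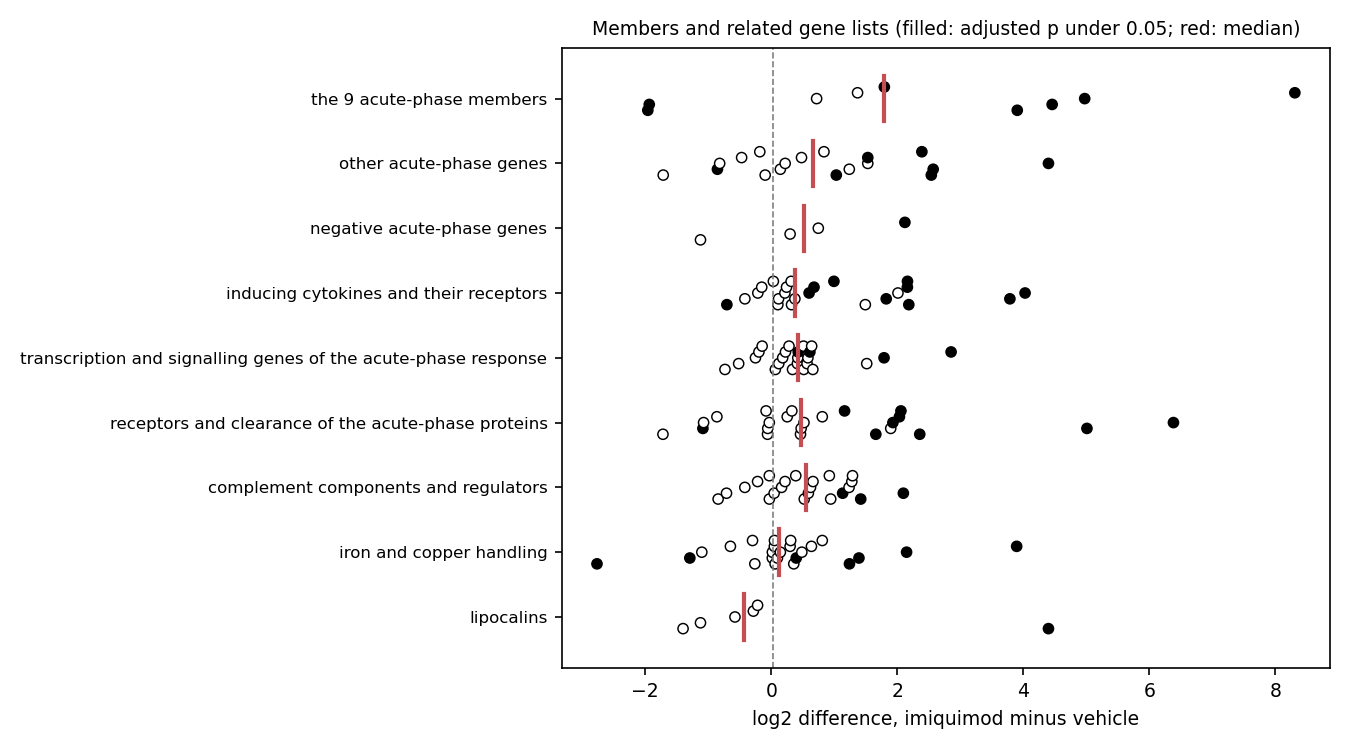
Difference in log2 signal, imiquimod minus vehicle (x axis), of every tested gene of the 9 members and of each related list (rows). Filled points passed at an adjusted p under 0.05, the red bar is the median of a row, and the dashed line is the median of all genes tested, 0.02. The members run from -1.96 to 8.31 around a median of 1.79, and the lowest single gene is Cybrd1 of the iron and copper list, at -2.77.

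Receptors and clearance genes of these proteins gave 8 rises and 1 fall among 23 tested, with a median of 0.47. Fpr2, a formyl peptide receptor that also binds serum amyloid A, rose by 5.01 (SE 0.53, adjusted p = 0.00345), its relative Fpr1 by 6.38 (SE 0.67, adjusted p = 0.00337) and Tlr2 by 1.93 (SE 0.19, adjusted p = 0.00310). Both Fpr genes were well above background on 2 of 3 vehicle arrays, so the size of their rise is measured partly against background. Asgr2, part of the asialoglycoprotein receptor, fell (difference -1.08, SE 0.24, adjusted p = 0.0257). Among the receptors named for these proteins, C3ar1 rose by 2.03 (SE 0.37, adjusted p = 0.0158), Cd163 differed by -0.08 (SE 0.38, adjusted p = 0.891) and the Lcn2 receptor gene Slc22a17 by -1.07 (SE 0.49, adjusted p = 0.161). These 3 were chosen after their values were seen. Under the slide block 3 were higher and 0 lower.

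Of 22 other complement genes tested, 3 rose, a share near that of all genes, and 0 fell in limma, against 7 and 0 at an unadjusted p under 0.05, and the median was 0.56. Hc, the gene of component C5, was well above background on 3 imiquimod and 0 vehicle arrays and at least 3.00-fold higher (adjusted p = 0.00169). Masp1, a protease of the lectin pathway, rose by 1.13 (SE 0.27, adjusted p = 0.0307) and C1qb, a chain of C1q, by 1.42 (SE 0.37, adjusted p = 0.0415). The slide block left 1 higher and 0 lower. Of 24 tested genes of iron and copper handling, 5 rose and 2 fell, with a median of 0.12. Ltf, which encodes the iron-binding lactoferrin, rose by 3.89 (SE 0.33, adjusted p = 0.00222), with 2 of 3 vehicle arrays well above background. The ferritin light chain gene Ftl1 rose by 1.24 (SE 0.13, adjusted p = 0.00341), and Slc11a1, a metal transporter of phagosomes, by 2.15 (SE 0.33, adjusted p = 0.00937). Bdh2 (1.39) and Hmox2 (0.40) also rose. Heph, the membrane-bound homologue of ceruloplasmin, fell (difference -1.29, SE 0.15, adjusted p = 0.00434), while Cp rose, and the ferric reductase gene Cybrd1 differed by -2.77 (SE 0.64, adjusted p = 0.0292). In the fit with a slide block, 2 were higher and 1 lower. Of 6 other lipocalins tested, Ambp rose by 4.40 (SE 0.85, adjusted p = 0.0183), with 1 of 3 vehicle arrays well above background, and 0 fell in limma, against 1 at an unadjusted p under 0.05. Both counts changed under the slide block, where Ambp did not pass (adjusted p = 0.0536) and Rbp4 was lower (adjusted p = 0.0285). For both genes that fit sets imiquimod array 1 alone against the vehicle arrays. The median of this list was -0.43.

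Markers of the cells that could carry these transcripts moved with treatment, and their part in the results was not tested. In whole skin, fewer cells of a type and less RNA per cell cannot be told apart. Of all genes tested 13.1% were called higher and 10.5% lower, or 3.04% and 2.91% with slide as a block. Neutrophil markers rose in 9 of 10 tested, and their summed signal, relative to the 75th percentile of the array, was 788 to 905 on the imiquimod arrays and 4.02, 44.5 and 11.6 on vehicle arrays 1, 2 and 3. Vehicle array 2 was the highest of its group here, as in the Saa genes and Lcn2, and also in the sums of activated keratinocyte, hair follicle, T cell and hepatocyte markers. Elane was the neutrophil marker that was dark on all arrays. Markers of activated keratinocytes rose in 6 of 7, with summed signals of 1131 to 1406 against 181 to 332, and macrophage markers rose in 5 of 10, at 382, 442 and 403 on the imiquimod arrays and 229, 132 and 323 on the vehicle arrays. Hair follicle markers fell in 6 of 8, at 3.84 to 5.62 against 119.7 to 1241. Fibroblast markers rose in 5 of 7, at 1001 to 1128 against 600 to 857. Endothelial markers rose in 4 of 6, at 15.9 to 18.7 against 6.08 to 9.89. Basal and suprabasal keratinocyte markers gave 3 higher and 1 lower of 9. Skeletal muscle markers gave 0 higher and 1 lower of 6, and T cell markers 0 and 0 of 4. The slide block left 5 neutrophil, 4 activated keratinocyte, 1 macrophage, 1 fibroblast and 1 endothelial marker higher and 3 hair follicle markers lower. Of the basal and suprabasal keratinocyte markers it left 1 higher and 1 lower. Adipocyte markers fell in 1 of 8, a share near that of all genes. Their sums were 237, 320 and 276 on imiquimod arrays 1, 2 and 3 and 381, 242 and 516 on the vehicle arrays. The order of the arrays within each group was the same for this sum and for the macrophage sum, whose markers rose, as for Orm1 and Orm2. The summed signal of the complement list had that order too, but this list shares Cfd with the adipocyte list and C1qa with the macrophage list. How common the order is over all genes was not counted, and a cell source of the Orm transcripts was not tested. Of 10 hepatocyte markers, Ttr, Apoa1, Apob and Fgb were dark on all arrays, Alb rose and Cps1 fell, and the sum was 0.37 to 0.61 against 0.47 to 0.97.

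**Figure D5:**
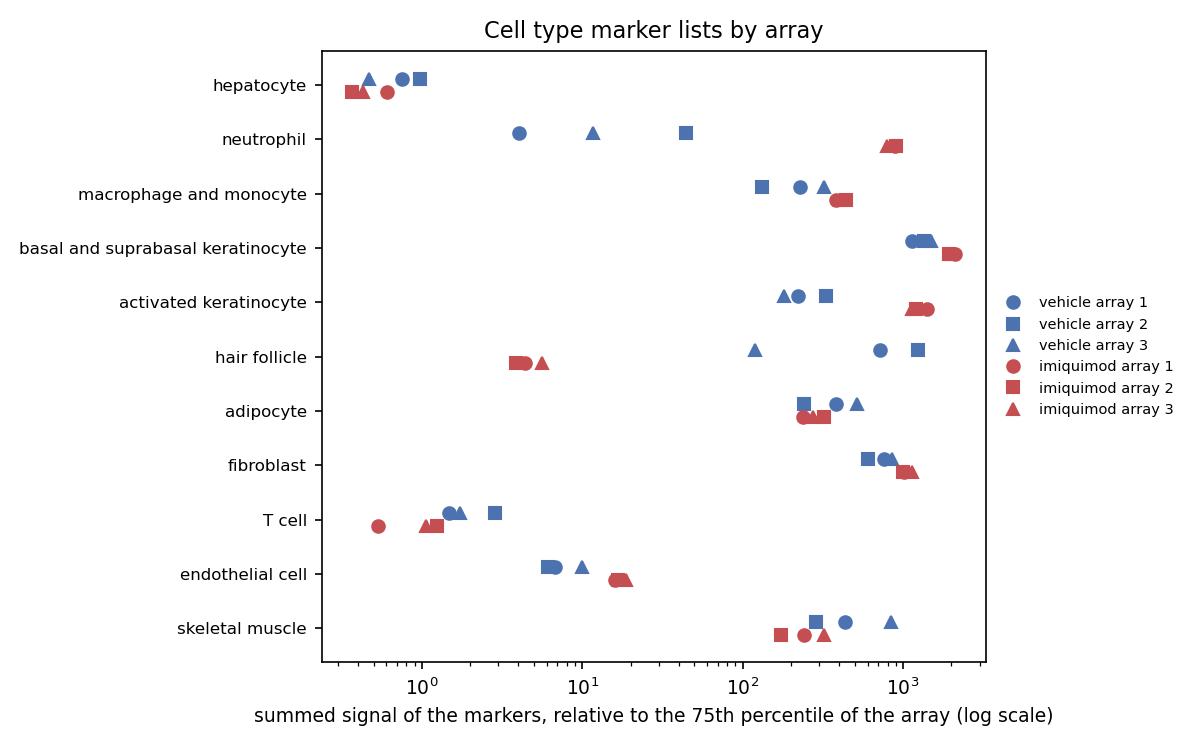
Summed signal of the markers of each cell type on each array, relative to the 75th percentile of that array (x axis, log scale), for the cell types listed (rows), with vehicle in blue and imiquimod in red. The neutrophil and hair follicle rows separate the groups most, and vehicle array 2 is the nearest of its group to the imiquimod arrays in the neutrophil and activated keratinocyte rows and the farthest in the hair follicle row.

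The genes whose pattern over the 6 arrays was most like that of Saa3 were Zic4, 2300002M23Rik and Gm6166, each with a Pearson r of 0.999. For the mean of the 9 genes, each centred and scaled, they were Ppp1r18, Ostf1 and Ifnar1, with r of 0.999, 0.999 and 0.998. These correlations are descriptions over 6 arrays that form 2 groups and share their slides. 2300002M23Rik was well above background on 4 of the 6 arrays.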

How the data were processed

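Total RNA of whole skin was measured in 6 samples on single-colour (Cy3) Agilent arrays. The authors deposited 1 scanner file per sample, with spot intensity on a linear scale, background-subtracted and detrended per the file headers, which name Agilent Feature Extraction 10.7.3.1 (the submitters' processing notes name 9.1). The deposited value table holds log2 values, and its normalization between arrays is not given in the sources used here. Its columns rose by 0.974 to 1.01 per log2 unit of the matching array.

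Control spots and 322 outlier spots were left out, spots of a probe were averaged as log2, and each array's 75th percentile was subtracted. Probes well above background on at least 3 of 6 arrays (27415) were tested, with the probe of highest mean for each of 17778 genes, using limma 3.58.1 in R 4.3.3. The precision is limited by the number of arrays. Il1f6, Il1f8 and Il1f9 of the files are called Il36a, Il36b and Il36g. Folds written as at least a number compare the bright group's mean with the dim group's, after each dim value is raised to its array's detection limit (the dimmest probe flagged well above background there). The rule named all 9 members and, of each list, the 3 genes of smallest p that passed in each direction, or all where 5 or fewer passed; others are said to be chosen later, and 1 gene the rule names is not reported here. Members and lists were chosen with earlier results of these data known. The fit was tested on simulated data. Replicate numbers did not pair the samples (correlations of deviations -0.087, 0.068 and 0.085 over genes). Quantile normalization, normexp (offset 50), other filters, probe rules, a variance trend, the value table, slide and replicate blocks and leaving out each array were the alternatives.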

Additional observations from a re-analysis of the deposited data

How the results depend on the processing

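All 9 genes kept the direction of their difference under all 17 alternatives. Quantile normalization, no filter on dim probes, the mean of a gene's probes, the value table and testing every probe left 5 members higher and 2 lower. Normexp, the filter on all 6 arrays and the variance trend made it 6 higher, with C3. With slide as a block 3 members were higher and 0 lower (5 and 2 at an unadjusted p under 0.05 in limma), and 541 genes in all were higher and 518 lower. The differences of that fit are those of imiquimod array 1 from the vehicle arrays. Within slide 1, where 1 array met 3 and the lone array is assumed to vary like the others, 0 and 0 members passed (5 and 2 unadjusted) and 7 and 1 genes in all. The replicate block left 5 members higher and 1 lower, and 1164 and 1043 genes in all, against 2330 and 1866. Leaving out each array in turn gave 5 to 6 members higher, 0 to 2 lower, 944 to 2514 genes higher, 745 to 2215 lower and a median difference of the members of 1.58 to 1.96. Every value without imiquimod array 1, 2 or 3 or vehicle array 1 had 0 members lower (2 unadjusted). Averaging the probes of a gene made that median 1.37. The cause of these changes was not tested. The members were well above background on all arrays, but some were dim on the vehicle arrays. Lcn2 had processed signals of 75.9, 145 and 108 on vehicle arrays 1, 2 and 3. The size of such rises changed with the handling of background. With normexp Lcn2 rose by 3.69 and Saa3 by 7.76, against 4.46 and 8.31 in the main fit.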

Other observations

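The genes next to the acute-phase loci in RefSeq order were also looked up. Of the 12 nearest tested neighbours, 1 on each side of the Saa cluster, the Orm cluster, Lcn2, Hp, C3 and Cp, 4 rose and 0 fell in limma, against 13.1% and 10.5% of all genes tested, and their differences ran from -0.37 to 1.54. Beside the Saa cluster, Saal1 differed by 0.40 (SE 0.17, adjusted p = 0.143), and on the other side Hps5 had a difference of -0.05 (SE 0.11, adjusted p = 0.793). Beside the Orm genes, which fell, Akna rose by 1.12 (SE 0.23, adjusted p = 0.0228), and Col27a1, on the other side, by 0.78 (SE 0.19, adjusted p = 0.0342). Tnfsf14, a cytokine gene beside C3, rose by 1.54 (SE 0.40, adjusted p = 0.0397). Beside Lcn2, which rose, 1110008P14Rik rose by 0.94 (SE 0.22, adjusted p = 0.0304 in limma). These neighbours were looked up after the values of the members were seen.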
